A study of Canis lupus familiaris with 17 samples.

Results

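Of 17 canine soft tissue sarcomas measured, 10 are described here: the 3 tumours excised on day 2 after a single intratumoral dose of collagen-binding IL-2 and IL-12, and the 7 archived tumours that had received no treatment. They were selected by their sample titles, and the 780 endogenous probes of each were scaled by the 20 housekeeping probes of the same tumour. All tumours were spontaneous sarcomas of client-owned dogs, so age, breed and tumour site were not controlled, and none of these is given per tumour in the labels. RNA came from formalin-fixed, paraffin-embedded (FFPE) tissue and was counted on the NanoString nCounter panel for canine immuno-oncology, where fluorescent barcodes are counted directly, without amplification. Day 2 tumours A and C were peripheral nerve sheath tumours and B was a myxosarcoma. The untreated tumours were 4 perivascular wall tumours (A, C, D and E) and 3 peripheral nerve sheath tumours (B, F and G). Every untreated tumour was archived and no day 2 tumour was, so the effect of archiving and that of the cytokines cannot be told apart. The labels do not say whether each archived tumour came from a different dog, and the p-values measure the spread between these 10 tumours and, in the shared model, the other 7.

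IL-12 acts on T and NK cells through a receptor that activates STAT4 and drives release of interferon-gamma. IL-2 acts through a receptor of 3 chains, IL2RA, IL2RB and IL2RG, that signals by JAK3 and STAT5 and expands T and NK cells. Interferon-gamma in turn induces IRF1 in most cell types, which switches on antigen presentation, chemokines and enzymes such as IDO1. Binding to collagen is meant to hold the injected cytokines in the tumour.

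The day 2 tumours differed from each other in the amount of RNA counted. Endogenous totals were 1232818, 1089862 and 126997 counts in tumours A, B and C, against 1200521 to 1509461 counts in the untreated tumours. The housekeeping geometric mean was 279.9, 281 and 61.9 counts, against 489 to 686. Day 2 C was thus scaled up most, and a probe at its background limit (mean plus 2 SD of the negative controls) reads as 163 normalized counts there, 44.6 in A, 61.5 in B and 12.6 to 23.7 in the untreated tumours. Values under 163 in C are at background. Endogenous probes above background numbered 667, 613 and 607 against 609 to 674 (difference -15.6 on average, exact two-sided permutation p = 0.4). Log2 counts of the day 2 tumours correlated at r = 0.919 between A and B, 0.760 between A and C and 0.764 between B and C over the endogenous probes. With untreated tumours r ran from 0.708 to 0.837 for A, 0.700 to 0.839 for B and 0.674 to 0.746 for C. Some untreated tumours were thus closer to A and B than C was. Pairs of untreated tumours ran from 0.885 to 0.953. These are correlations across genes, which are not independent replicates.

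Soft tissue sarcomas are mesenchymal, and VIM, the mesenchymal filament vimentin, was at 114407, 141333 and 134854 normalized counts in day 2 tumours A, B and C and at 142670.1 to 354389 in untreated ones. The nerve sheath label could be checked less well. SOX10, a Schwann cell transcription factor, was above background in 0 of 3 day 2 tumours and 4 of 7 untreated ones. S100B, a Schwann cell protein, was higher in the myxosarcoma (470.2 normalized counts) than in the day 2 nerve sheath tumours (168 and 172). MCAM, a pericyte marker, overlapped between groups at 468, 288 and 437 against 276 to 442 (median 371) normalized counts, and was called lower with TMM (-0.92 log2, edgeR adjusted p = 0.0337) but not with housekeeping scaling.

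On day 2, IDO1, CXCL10 and GBP5 of the interferon-gamma response, the immunoproteasome subunits PSMB8 and PSMB10 and the cytotoxic protease GZMB stood far above their level in untreated tumours. The surface protein genes CLDN1, ITGB1 and NRP1 stood below their untreated level. Of 724 endogenous genes that could be tested, 346 were called higher (47.8%) and 19 lower (2.62%) by edgeR's quasi-likelihood test at an adjusted p under 0.05. These numbers depend on the scale. Relative to the housekeeping probes the median gene moved by 1.23 log2, and with TMM scaling, which sets the scale from the bulk of the endogenous genes, it moved by 0.25. With TMM 170 genes were called higher (23.5%) and 114 lower (15.7%). All 170 were among the 346, so 170 genes (23.5%) were higher under both scalings, and the 19 falls were also called with TMM. No gene was called higher under one scaling and lower under the other. Each list below is therefore read against these shares and medians.

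**Figure D1:**
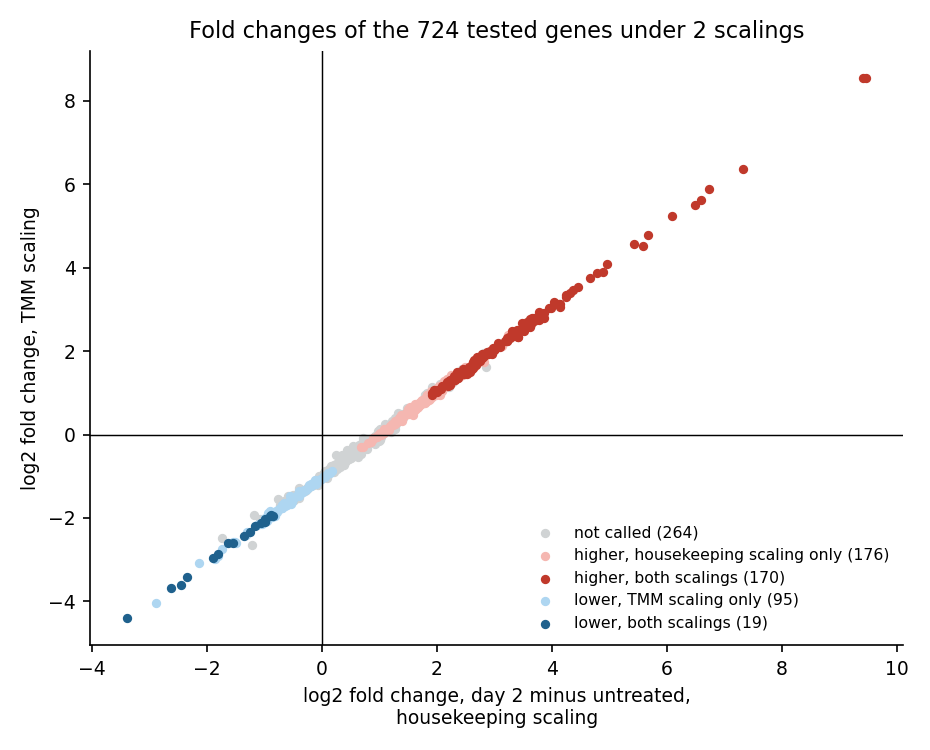
Log2 fold change of each tested gene, day 2 minus untreated, with housekeeping scaling (x axis) and TMM scaling (y axis); each point is 1 gene, coloured by its calls in edgeR. The points lie on a line shifted down from equality, with 170 genes higher under both scalings and 19 lower under both.

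Some rises rested on few counts. Of the 346, 235 were above background in all 3 day 2 tumours and 53 in at most 1, and 89 were not called once the mean of the negative controls was subtracted. In 154 genes the rise was called with housekeeping, TMM and median-of-ratios scaling (which also sets the scale from all tested genes), and in 143 of these it was also called, with housekeeping scaling, without each of the 10 tumours in turn. With TMM as well in every one of those fits, 91 remained. Of the 143, 136 were called after background subtraction and 108 with sarcoma type as a covariate. That covariate gives the single myxosarcoma a term of its own, so day 2 tumour B drops out of the contrast. In 103 genes (14.2%) all 3 day 2 tumours lay above all 7 untreated ones under both scalings, and in 21 (2.90%) all lay below. In C, however, the negative controls averaged 97.6 normalized counts, against 6.88 to 11.5 in untreated tumours. C was also scaled up most with TMM (by 4.74, against 0.81 to 1.09). A gene with low untreated values can therefore lie above all 7 in C on background alone, here and in the comparisons below. Among the 143, C had the lowest housekeeping-scaled value of the 3 day 2 tumours in 82 genes, B in 36 and A in 25 (79, 34 and 30 with TMM). A had the highest in 70, C in 40 and B in 33, but with TMM these counts were 53, 45 and 45. The panel measures whole tissue, so more cells of a type and more RNA per cell cannot be told apart.

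Interferon-gamma itself was above background in all 3 day 2 tumours and in no untreated one. IFNG was at 726, 351 and 164 normalized counts in tumours A, B and C, with C just above its background limit, and below background in all 7 untreated tumours (4.57 to 10.8). Only 2 other genes were below background in all 7 untreated and above it in all 3 day 2 tumours: SLAMF6, a lymphocyte receptor of the SLAM family, and NCR1, an activating receptor of NK cells. IRF1, the transcription factor downstream of the interferon-gamma receptor, was at 12037, 18349 and 24320.1 normalized counts against 101 to 974 (median 404). The lowest day 2 tumour was far above the highest untreated one. IRF1 rose by 5.43 log2 (SE 0.68, edgeR adjusted p = 4.4e-05), and by 4.56 with TMM. SOCS1, the feedback inhibitor of JAK signalling, rose by 3.42 (SE 0.54) from 67 to 259 normalized counts, to 2175, 1965 and 640.4. IRF8, an interferon-inducible factor of myeloid and B cells, was at 1443 and 2814 in A and B but at 195 in C, inside the untreated range of 32 to 324. Its rise of 3.68 log2 was called under both scalings, but not with sarcoma type as a covariate (edgeR adjusted p = 0.0652).

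Upstream members of the pathway showed smaller differences. Of 11 tested genes of interferon-gamma, its receptor and JAK-STAT signalling, 8 were higher (5 with TMM) and 0 lower, with a median of 1.51 log2 against 1.23 for all tested genes (0.50 against 0.25 with TMM). IFNGR1, the ligand-binding receptor chain, was not called (0.06 log2, SE 0.38), nor were JAK1 (0.12, SE 0.38), STAT3 (0.26, SE 0.37) and STAT6 (0.18, SE 0.35). With TMM all 4 were below 0 (-0.92, -0.85, -0.79 and -0.84) and again not called. STAT2, a transducer of type I interferon signalling, was at 2692, 2501 and 2585 normalized counts, one of the tightest sets of day 2 values, against 537 to 1179 (median 903). It rose by 1.51 log2 (SE 0.31, edgeR adjusted p = 0.00107), but was not called with TMM (adjusted p = 0.222).

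The induced enzymes and GTPases of the interferon-gamma response had the highest median fold change of all the lists. All 8 tested members were higher under both scalings, with a median of 5.32 log2 (4.31 with TMM). IDO1, which degrades tryptophan, was at 70905, 12749.9 and 18197 normalized counts against 8.46 to 118 (median 35.6), and above background in 4 of 7 untreated tumours. Tumour A exceeded the other two by several fold, and all 3 were far above the highest untreated value. It rose by 9.46 log2 (SE 1.21). GBP5, a guanylate-binding GTPase of host defence, was at 5461, 3104 and 945 against 7.61 to 52.5 (median 13.8). ACOD1, the enzyme that makes itaconate in activated macrophages, was at 3176, 1932 and 820 against 10.7 to 33.3 (median 24.4), a rise of 6.49 log2 (SE 0.83, edgeR adjusted p = 4.4e-05). In both the order of the day 2 tumours was A, B, C, and none overlapped with untreated. NOS2, the inducible nitric oxide synthase, varied more, at 1634, 172 and 726 against 53.4 to 105 (median 74.6). It rose by 3.42 log2 (SE 0.65), and with TMM its groups overlapped. The ratio of NOS2 to ARG1, the arginase that uses the same substrate, differed by 2.12 log2 and did not pass (exact permutation adjusted p = 0.0521).

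**Figure D2:**
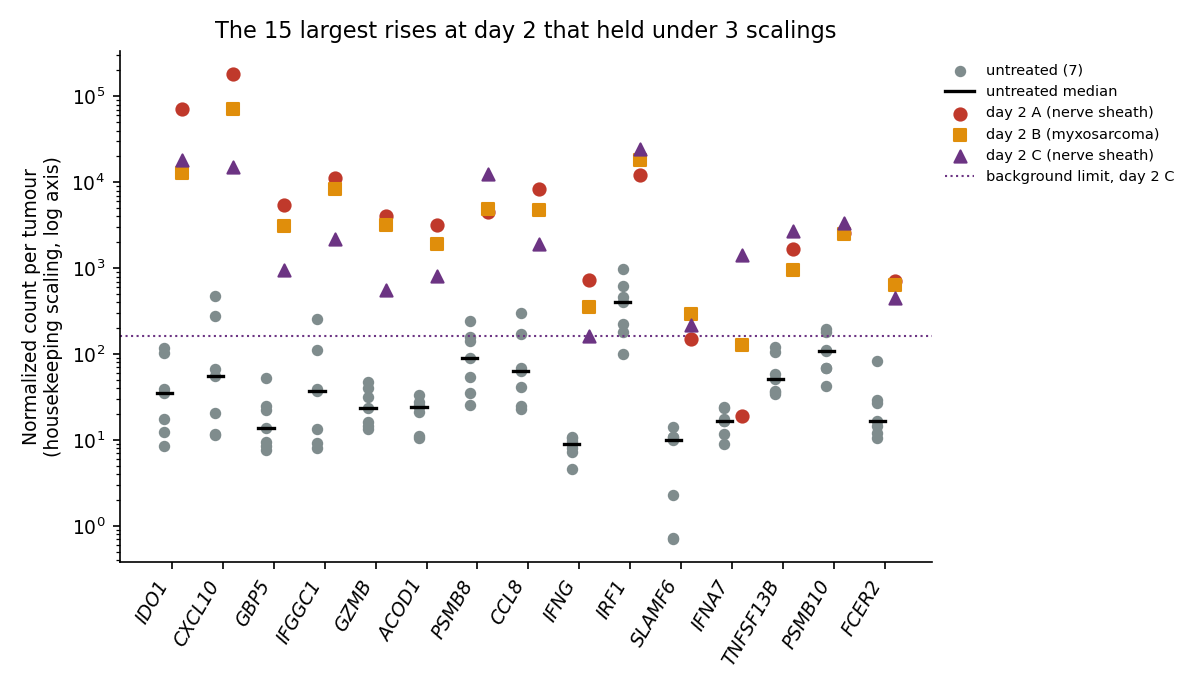
Normalized count per tumour (log axis) of the 15 largest rises that were called with 3 scalings and without each tumour in turn; grey points are the 7 untreated tumours with their median as a bar, and coloured symbols the 3 day 2 tumours. In 14 of the 15 genes all 3 day 2 tumours lie above all 7 untreated ones; in IFNA7 tumour A lies at 19, inside the untreated range.

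Genes that cut and load peptides for MHC class I rose in all 11 tested cases, under both scalings (median 3.77 log2, 2.86 with TMM). PSMB8, an immunoproteasome subunit, was at 4552, 4859 and 12355 normalized counts against 25.4 to 240 (median 90), and here C was the highest. PSMB10, another such subunit, was nearly level across the day 2 tumours, at 2559, 2521 and 3374, against 43 to 198 (median 109.8). Neither gene overlapped with untreated, and PSMB10 rose by 4.66 log2 (SE 0.54, edgeR adjusted p = 4.4e-05). PSMB9, the subunit whose gene lies beside TAP1, was lower in C, at 10689, 8568 and 1554 against 164 to 1074 (median 448), and overlapped with TMM. NLRC5, the transactivator of class I genes, rose by 4.24 log2 (SE 0.57) to 1363, 1316 and 3101 normalized counts from 43.3 to 165. Among the class I heavy chains, whose sequences are alike enough that probes may share targets, DLA-79 was at 4058, 3891 and 2843 against 31 to 452 (median 170). DLA-64 was at 4502, 5346 and 4889 against 151 to 989 (median 418). In both the day 2 values stood close together and clear of untreated.

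Class II presentation rose in 10 of 10 tested genes, and in 8 with TMM (median 3.40 log2, 2.50 with TMM). CIITA, the master regulator of class II transcription, was at 2287, 1721 and 828 normalized counts against 49.2 to 185 (median 123), without overlap, and rose by 3.83 log2 (SE 0.57). DLA-DMB, a chain of the peptide exchanger DM, was at 9931, 10923 and 2476 against 113 to 707 (median 350.1). HLA-DRB1, as the panel names its DR beta probe, was at 36900.3, 27704 and 11215 against 380.3 to 3629 (median 2407). These were clear of untreated in every day 2 tumour, with C the lowest. The DQ chains did not follow in C: DLA-DQA1 was at 24259, 43522 and 1898 against 329.6 to 3971 (median 1429). DLA-DQB1 was at 14884 and 28083 in A and B but at background in C (15.6), which made it the gene with the widest day 2 range relative to its fold among called genes. With TMM it was not called (adjusted p = 0.0641).

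Ratios of 2 genes within a tumour do not depend on the scaling. Of 30 listed pairs 25 could be measured, and by an exact two-sided permutation test 7 ratios were higher and 4 lower at day 2 after Benjamini-Hochberg adjustment. With 3 against 7 tumours the smallest p is 0.00833, and the smallest adjusted p here was 0.0298. Counts below background were set to the limit. Without any 1 day 2 tumour no ratio was called, with 2 against 7 tumours left, and without 1 untreated tumour 6 to 9 were higher and 0 to 4 lower. IRF1 over IRF3, a constitutive relative, was at most 1.77 on the log2 scale in untreated tumours and 3.97, 3.94 and 4.98 in A, B and C, a difference of 4.73 (exact permutation p = 0.00833, adjusted p = 0.0298). Every day 2 tumour was above every untreated one. The peptide transporter TAP1 rose relative to B2M, the class I light chain, by 0.72 (exact permutation p = 0.0167, adjusted p = 0.0379), with tumour A inside the untreated range. CIITA over CD74, the invariant chain, was -4.93, -4.98 and -4.96, inside the untreated range of -5.92 to -4.18, and JAK2 over JAK1 was not called either (0.66, exact permutation adjusted p = 0.222).

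**Figure D3:**
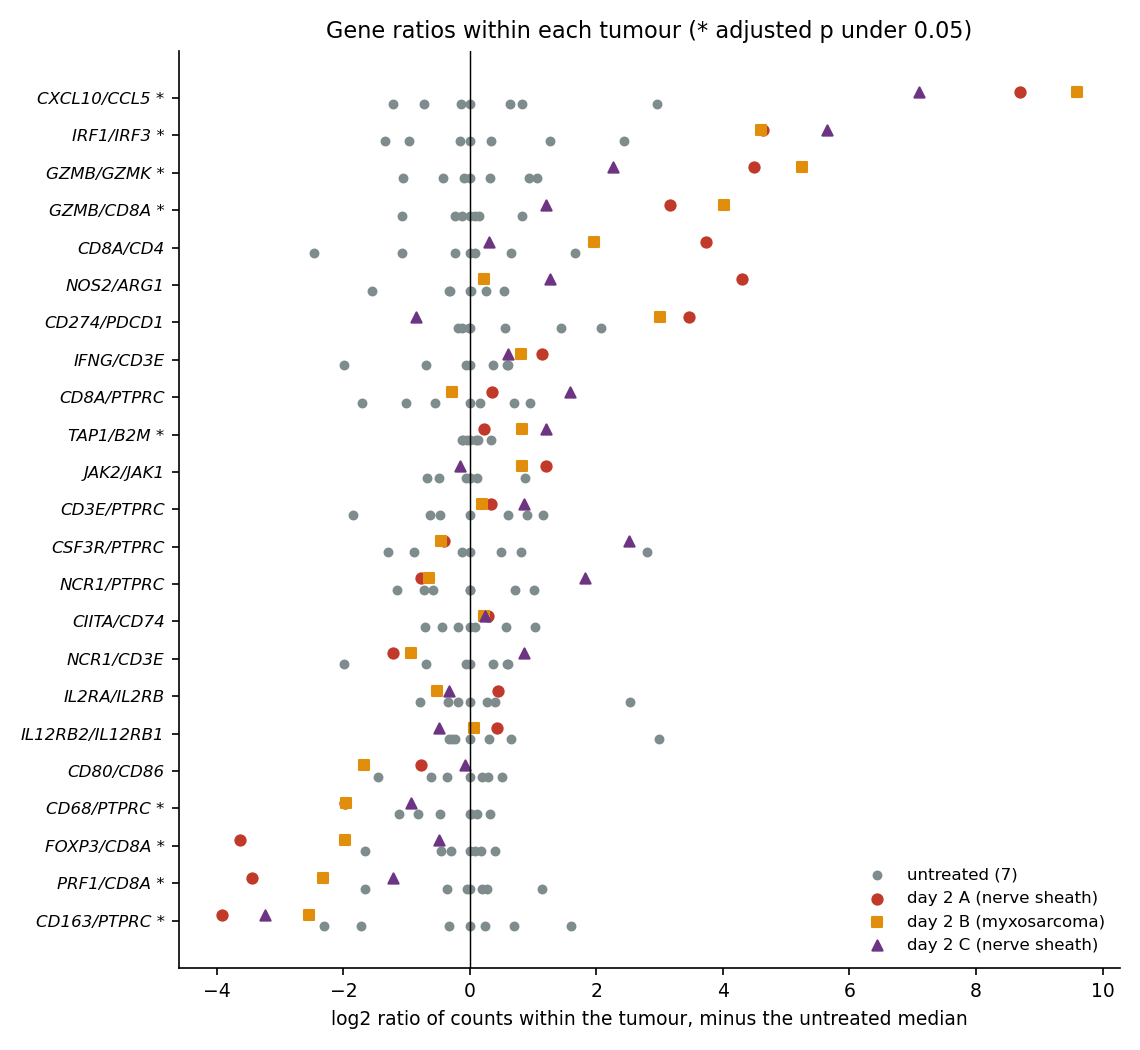
Log2 ratio of the counts of 2 genes within each tumour, minus the median of the untreated tumours, for the measured pairs that are reported here; counts at or under background were set to the limit, grey points are untreated, coloured symbols day 2, and an asterisk marks an adjusted p under 0.05. CXCL10 over CCL5 moved most, by 8.13, and CD163 over PTPRC moved most in the other direction (-2.97).

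Antiviral genes and sensors had lower medians than the interferon-gamma induced list. Of 7 tested antiviral interferon-stimulated genes 5 were higher, and 2 with TMM (median 1.91, 1.03 with TMM). BST2, which tethers virus to the cell surface, was at 5712, 2234 and 2179 normalized counts against 102 to 1767 (median 337), so the lower day 2 tumours were close to the highest untreated one. IFI35 was at 479, 260.1 and 429.5 against 53.6 to 193 (median 85.1), and rose by 2.01 log2 (SE 0.39, edgeR adjusted p = 0.000881). OAS2 and OAS3, synthetases that activate RNA decay, were called with housekeeping scaling but not with TMM (edgeR adjusted p = 0.0964 and 0.0902). The probe for IFNA7, a type I interferon, rose by 4.89 log2 (SE 0.73), but its values were 19, 129 and 1406 in A, B and C against 9.06 to 24.2 (median 16.8). C, the tumour with the fewest counts in all, read 180 raw counts and was by far the highest. Without C the rise was 2.11 log2 (edgeR adjusted p = 0.00296).

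Of 21 genes of Toll-like receptors and nucleic acid or danger sensing 16 were higher and 0 lower, but with TMM 4 were higher and 1 lower. The share higher with TMM was thus under that of all tested genes (23.5%). PYCARD, the inflammasome adaptor ASC, was at 1437, 1455 and 289 normalized counts against 43 to 244 (median 80.9), and rose by 3.51 log2 (SE 0.64). NLRP3, a sensor that recruits it, was at 249, 422 and 367 against 8.08 to 73.8 (median 62.3), clear of untreated under both scalings. TLR8, an RNA sensor of myeloid cells, was at 1018 and 1171 in A and B and at 226 in C, inside the untreated range of 35 to 356. TLR5, the flagellin receptor, was above background in 1 day 2 tumour, C (578 normalized counts), and in 5 of 7 untreated tumours, and was not called with TMM (adjusted p = 0.184).

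Of 22 tested genes of the IL-2 and IL-12 families 18 were higher and 1 lower, and 12 and 1 with TMM (median 2.48 log2, 1.50 with TMM). IL2RB, the signalling chain shared by the IL-2 and IL-15 receptors, was at 653, 646 and 414 normalized counts against 25 to 85.2 (median 35.6), and rose by 3.80 log2 (SE 0.51, edgeR adjusted p = 4.6e-05). IL2RG, the common gamma chain, was at 1698, 909 and 664 against 27.2 to 177 (median 61.7), and IL2RA, which raises affinity for IL-2, at 741, 374 and 273 against 8.08 to 193 (median 29.7). All 3 chains were above every untreated tumour with housekeeping scaling, and IL2RA overlapped with TMM. The ratio of IL2RA to IL2RB did not pass (-0.41 log2, exact permutation adjusted p = 0.72).

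Among called genes EOMES, which directs effector T and NK cell programmes, had the tightest day 2 values relative to its fold, 252, 264 and 266 normalized counts, against 7.61 to 29.9 (median 13.9). It rose by 3.99 log2 (SE 0.53, edgeR adjusted p = 4.6e-05), and 3.02 with TMM. The background limit of 163 in C was itself above the untreated range of EOMES. The 1 member that fell was STAT4, the transducer of the IL-12 receptor, at 168, 138 and 148 normalized counts against 205 to 433 (median 288). Its value in C was below the background limit, and its change of -0.98 log2 (SE 0.38, edgeR adjusted p = 0.0432) was called in only 2 of 10 fits that left out 1 tumour. With TMM it was called lower in 10 of 10. IL12RB1 rose by 2.60 log2 (SE 0.56), IL12RB2 was not called (1.20, SE 0.78), and their ratio did not pass (-0.44, exact permutation adjusted p = 0.72).

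Cytotoxic granule genes rose in 7 of 8 tested cases, and in 5 with TMM (median 2.61 log2). GZMB, the granule protease granzyme B, was at 4008, 3174 and 555 normalized counts against 13.4 to 47.5 (median 23.3), and rose by 6.60 log2 (SE 0.86). NKG7, a granule membrane protein, was at 658, 475 and 320.2 against 26.4 to 47.5 (median 33.3), and GZMA at 733, 499 and 297 against 30 to 90.6 (median 37.8). All 3 were highest in A and lowest in C and clear of untreated in every day 2 tumour. CTSW, a protease of cytotoxic cells, was at 413, 146 and 78.1, with C at background, against 22.8 to 57 (median 27.5). PRF1, the pore-forming perforin, was at 273, 258 and 687 against 115 to 207 (median 183), and rose by 1.27 log2 (SE 0.44) but was not called with TMM.

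Granzyme B rose relative to the T cell marker CD8A and to granzyme K. GZMB over CD8A was 3.16, 4.01 and 1.20 against -1.07 to 0.83 on the log2 scale, a difference of 2.84 (exact permutation p = 0.00833, adjusted p = 0.0298), and GZMB over GZMK differed by 3.90. PRF1 over CD8A went the other way, by -2.26 (exact permutation adjusted p = 0.0379), as did FOXP3, the regulatory T cell factor, over CD8A, by -1.78. In both ratios C lay inside the untreated range, at 1.51 against 1.06 to 3.86 and at -0.20 against -1.36 to 0.70. FOXP3 itself was at 17.3, 51.7 and 211 normalized counts, above background in 1 day 2 tumour, C, and in 6 of 7 untreated ones. CD8A was at 449, 196 and 242 against 7.76 to 99.3 (median 23.6), and below background in 3 untreated tumours, so 6 of the untreated values in GZMB over CD8A and 3 in PRF1 over CD8A were limits. In FOXP3 over CD8A 2 day 2 and 4 untreated values were. CD8A over CD4 did not pass (2.19, exact permutation adjusted p = 0.128).

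Receptors of the SLAM and CD2 families, which tune contacts between lymphocytes, rose in 10 of 10 tested genes, and in 7 with TMM. SLAMF6 was at 150.3, 291 and 219 normalized counts against 0.705 to 14.1 (median 10). Its adaptor SH2D1A was at 213, 270.4 and 273 against 9.17 to 45.7 (median 16.7), and rose by 3.67 log2 (SE 0.56). CD48, the ligand of CD244, was at 1472, 1699.9 and 437 against 36.7 to 291 (median 85.1). CD244 was above background only in tumour A, although it was called (3.00 log2, SE 0.50).

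T cell markers rose in 6 of 8 tested genes, and in 5 with TMM. The summed level of the 8 was 1002 to 1367 normalized counts at day 2 against 132 to 574. No background was subtracted from these sums. The negative controls averaged 97.6 normalized counts per probe in C, against 6.88 to 11.5 in untreated tumours, so part of the sum in C is background. With TMM the sums overlapped, at 601 to 830 against 187 to 611, and 2 of the 8 markers were above background in all 3 day 2 tumours. CD3E, a chain of the T cell receptor complex, was at 498, 305 and 133, with C at background, against 14.8 to 127 (median 30.5). CD5, a T cell surface receptor, was at 216, 191 and 499.8 against 21.3 to 98.4 (median 32.5) and highest in C. LCK, the kinase that starts T cell receptor signalling, was at 216, 245 and 297 against 36.7 to 113 (median 44.2), and rose by 2.18 log2 (SE 0.45, edgeR adjusted p = 0.00143). T cell receptor proximal signalling as a list had 4 of 9 higher, a share near that of all genes, and 3 higher and 1 lower with TMM. CD4 overlapped, at 57, 84.4 and 328 against 21.2 to 239 (median 45.5) (edgeR adjusted p = 0.298).

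Among NK cell markers 7 of 9 were higher and 1 lower, and 6 and 1 with TMM. NCR1 was at 142, 105 and 195 normalized counts against 5.14 to 17.2 (median 9.89), and rose by 3.87 log2 (SE 0.63). Its value in C was just above the background limit of 163 there. KLRF1, a lectin receptor of NK cells, was at 107, 86.1 and 109 against 11.9 to 27.2 (median 15.4), with C under its background limit. NCR3, another activating receptor, was at 48.4, 79.2 and 422 against 19.1 to 39.5 (median 29.7), highest in C. The member that fell was NCAM1, also a neural marker, which was below background in all 3 day 2 tumours and above it in all 7 untreated ones (124 to 678). Relative to PTPRC, the pan-leukocyte antigen CD45, neither CD3E (0.50 log2), CD8A (0.75) nor NCR1 (0.24) passed the exact permutation test (Benjamini-Hochberg adjusted p = 0.636, 0.417 and 0.764). PTPRC itself was at 2431, 1641 and 555 against 99.7 to 499.9 (median 197), and rose by 2.64 log2 (SE 0.58).

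Chemokines rose in 13 of 25 tested genes, near the share of all genes, and in 6 with TMM, with 1 lower. Among the largest rises were ligands that interferon-gamma induces. CXCL10, which attracts T cells through CXCR3, was at 182014, 71345 and 14901 normalized counts against 11.4 to 478 (median 55.4). CXCL11, another CXCR3 ligand, was at 434, 98.2 and 398 against 17.6 to 35.1 (median 22.7), lowest in the myxosarcoma. CCL8, a monocyte chemokine, was at 8397, 4786 and 1898 against 22.8 to 299 (median 63.3), and rose by 5.67 log2 (SE 0.91, edgeR adjusted p = 0.000245). None of these 3 overlapped with untreated. CCL21, which guides cells to lymphoid tissue, was highest in the myxosarcoma (3236 normalized counts), lower in A (715) and at background in C (133), against 27.2 to 249 (median 99.7) in untreated tumours, and was not called with sarcoma type as a covariate (adjusted p = 0.262). CXCL10 over CCL5 differed by 8.13 log2 without overlap (exact permutation adjusted p = 0.0298).

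Chemokine receptors rose in 11 of 15 tested genes, and in 7 with TMM. CCR7, which directs lymphocytes and dendritic cells to lymph nodes, was at 242, 236 and 117 against 4.23 to 66.7 (median 9.14). CCR2, the monocyte receptor for CCL2, was at 649.6, 422 and 148 against 13.2 to 104 (median 32.6). In C both CCR7 and CCR2 were below the background limit. XCR1, the receptor that marks dendritic cells able to cross-present, was at 112, 119 and 187 against 9.87 to 28.7 (median 21.7), clear of untreated under both scalings. Its value in C was just above the background limit of 163 there, a limit that itself lies above the untreated range. The dendritic cell markers ITGAX (1.30 log2, SE 0.66) and FLT3 (0.72, SE 0.38) were not called.

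In the TNF superfamily 20 of 29 tested genes were higher, and 9 higher and 1 lower with TMM. TNFSF13B, the B cell survival factor BAFF, was at 1683, 940.4 and 2687 normalized counts against 34.5 to 120 (median 51.4), and rose by 4.79 log2 (SE 0.62, edgeR adjusted p = 4.4e-05). Its relative TNFSF13, known as APRIL, was at 1066, 2093 and 484 against 82.5 to 230 (median 127), highest in the myxosarcoma. FASLG, a death ligand of cytotoxic cells, was at 178, 189 and 344 against 7.34 to 36 (median 19). CD40, the receptor that licenses antigen-presenting cells, was at 2947, 2282 and 679 against 81.5 to 381 (median 166), and rose by 3.22 log2 (SE 0.57). None of the 4 overlapped under either scaling.

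Other cytokines and their receptors rose in 14 of 35 tested genes, under the share of all genes, and with TMM 5 rose and 5 fell. IL32, a cytokine of activated lymphocytes, was at 988 and 773 normalized counts in the nerve sheath tumours and 79.2 in the myxosarcoma, against 19.9 to 53.6 (median 35.6). It rose by 4.14 log2 (SE 0.62), and with TMM the myxosarcoma overlapped with untreated. IL22, which acts on epithelium, was below background in all 7 untreated tumours and reached 100.2, 62 and 78.1 in A, B and C, where C was at background and B barely above it. IL17A was led by C (12.1, 86.1 and 390.5) and was not called with TMM (adjusted p = 0.124).

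Checkpoint and costimulatory genes rose in 13 of 20 tested genes with 1 lower, and with TMM 5 rose and 1 fell. The share that rose with TMM was near that of all tested genes (23.5%). ICOS, a costimulatory receptor of activated T cells, was at 349, 212 and 203 normalized counts against 4.4 to 82.6 (median 16.3), and rose by 3.28 log2 (SE 0.67). CD274, the ligand PD-L1, was at 1038, 837 and 429.5 against 41.1 to 223 (median 73.2). PDCD1, its receptor PD-1, was at 63.9 and 70.6 in A and B, close to the untreated range of 28.1 to 54.5, and at 523 in C. Their ratio ran from -0.28 in C to 4.02 in A, and did not pass (1.34 log2, exact permutation adjusted p = 0.331). The member that fell was CD276, the B7 family ligand B7-H3, at 594, 436 and 414 against 797 to 1335 (median 1149), below every untreated tumour, and fell by 1.17 log2 (SE 0.34, edgeR adjusted p = 0.00954).

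Of 11 macrophage or monocyte markers 6 were higher, and 3 with TMM, near the shares of all tested genes (47.8% and 23.5%). C1QA, a chain of the complement component C1q made by macrophages, was at 3899, 10415 and 2648 normalized counts against 172 to 2471 (median 546), and SIGLEC1, a sialic acid receptor, at 356, 1691 and 383 against 47.2 to 299 (median 139.7). Both were highest in the myxosarcoma and were not called with sarcoma type as a covariate (edgeR adjusted p = 0.172 and 0.212). CD68, a lysosomal protein of macrophages, and CD163, their scavenger receptor for haemoglobin, were not called (1.15 log2, SE 0.50, and -0.65, SE 0.74). Relative to PTPRC, CD163 was lower in every day 2 tumour (-1.93, -0.56 and -1.24) than in any untreated one (-0.32 to 3.58), with a difference of -2.97 log2 (exact permutation p = 0.00833, adjusted p = 0.0298). CD68 over PTPRC differed by -1.34 (exact permutation adjusted p = 0.0379), with C inside the untreated range.

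Among Fc receptor, oxidase and phagocyte genes 10 of 15 were higher, and 5 higher and 1 lower with TMM. ITGB2, the integrin beta chain shared by leukocytes, was at 2500, 4069.7 and 4866 normalized counts against 88.8 to 307 (median 222), and rose by 4.36 log2 (SE 0.58, edgeR adjusted p = 4.6e-05). TREM1, an amplifier of myeloid inflammation, was at 282, 362 and 242 against 13.9 to 125 (median 35.6), and NCF4, a subunit of the phagocyte oxidase, at 484, 565 and 203 against 26.4 to 111 (median 81.7). All 3 genes were clear of untreated. Leukocyte adhesion genes as a whole had 7 of 17 higher, and 4 higher and 2 lower with TMM. The shares higher were near those of all tested genes (47.8% and 23.5%). ICAM3, a ligand of the integrin LFA-1, was far higher in C (3374) than in A and B (601 and 388), all above the untreated 27.9 to 193. ITGAE, the integrin chain CD103, was lower with TMM (-4.05 log2, adjusted p = 0.0283) but not with housekeeping scaling (-2.88, SE 1.21, adjusted p = 0.057).

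Complement genes rose in 13 of 21 tested genes, and with TMM 5 rose and 1 fell, where the share that rose was near that of all tested genes (23.5%). CFB, factor B of the alternative pathway, was at 2585 and 703 normalized counts in the nerve sheath tumours and 129 in the myxosarcoma, which lay inside the untreated range of 42.3 to 263. C4BPA, a chain of the C4b-binding inhibitor, was at 69.1, 195 and 383 against 3.67 to 40 (median 18.8), and rose by 3.52 log2 (SE 0.74). SAA1, the acute phase protein serum amyloid A, was at 188, 164 and 359 against 7.61 to 18.1 (median 12.5), without overlap, and rose by 4.13 log2 (SE 0.71, edgeR adjusted p = 0.000392). The acute phase list had 4 of 10 higher, and 1 with TMM. Neutrophil markers had 1 of 7 higher and 0 with TMM. The medians of these 2 lists differed by the tumours used. Over all tumours they were 0.81 log2 for the acute phase list and 0.96 for neutrophil markers. In the nerve sheath tumours alone they were 2.72 and 3.76, against 1.29 for all tested genes. The summed level of the neutrophil markers was 952 to 4095 normalized counts at day 2 and 371 to 8379 in untreated tumours.

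B cell markers were called higher in 4 of 5 tested genes under both scalings, at levels near background. MS4A1, the antigen CD20, was at 89.8, 51.7 and 78.1 normalized counts against 3.05 to 31.6 (median 5.43), and was above background only in tumour A and in 1 untreated tumour. BLK, a B cell kinase, and PAX5, the B cell identity factor, were each above background in 1 day 2 tumour, and CD79B in none. FCER2, the low-affinity IgE receptor CD23, carried by B cells and by activated macrophages, was higher and well measured, at 712, 636 and 453 against 10.7 to 82.5 (median 16.9), and rose by 4.45 log2 (SE 0.77). BTK, a kinase of B and myeloid cells, was at 508, 472 and 429.5 against 71.2 to 242 (median 105), and LYN, a Src kinase of the same cells, at 2438, 2380.2 and 305 against 81.5 to 463 (median 174). IGHM, the IgM heavy chain, was at 781, 1033 and 219 against 15.4 to 189.8 (median 80.9), and was not called with TMM (adjusted p = 0.0856). Mast cell markers had 3 of 5 higher, and 1 higher and 1 lower with TMM, with KIT, the stem cell factor receptor, the one that fell (-2.98 log2 with TMM, adjusted p = 0.042).

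**Figure D4:**
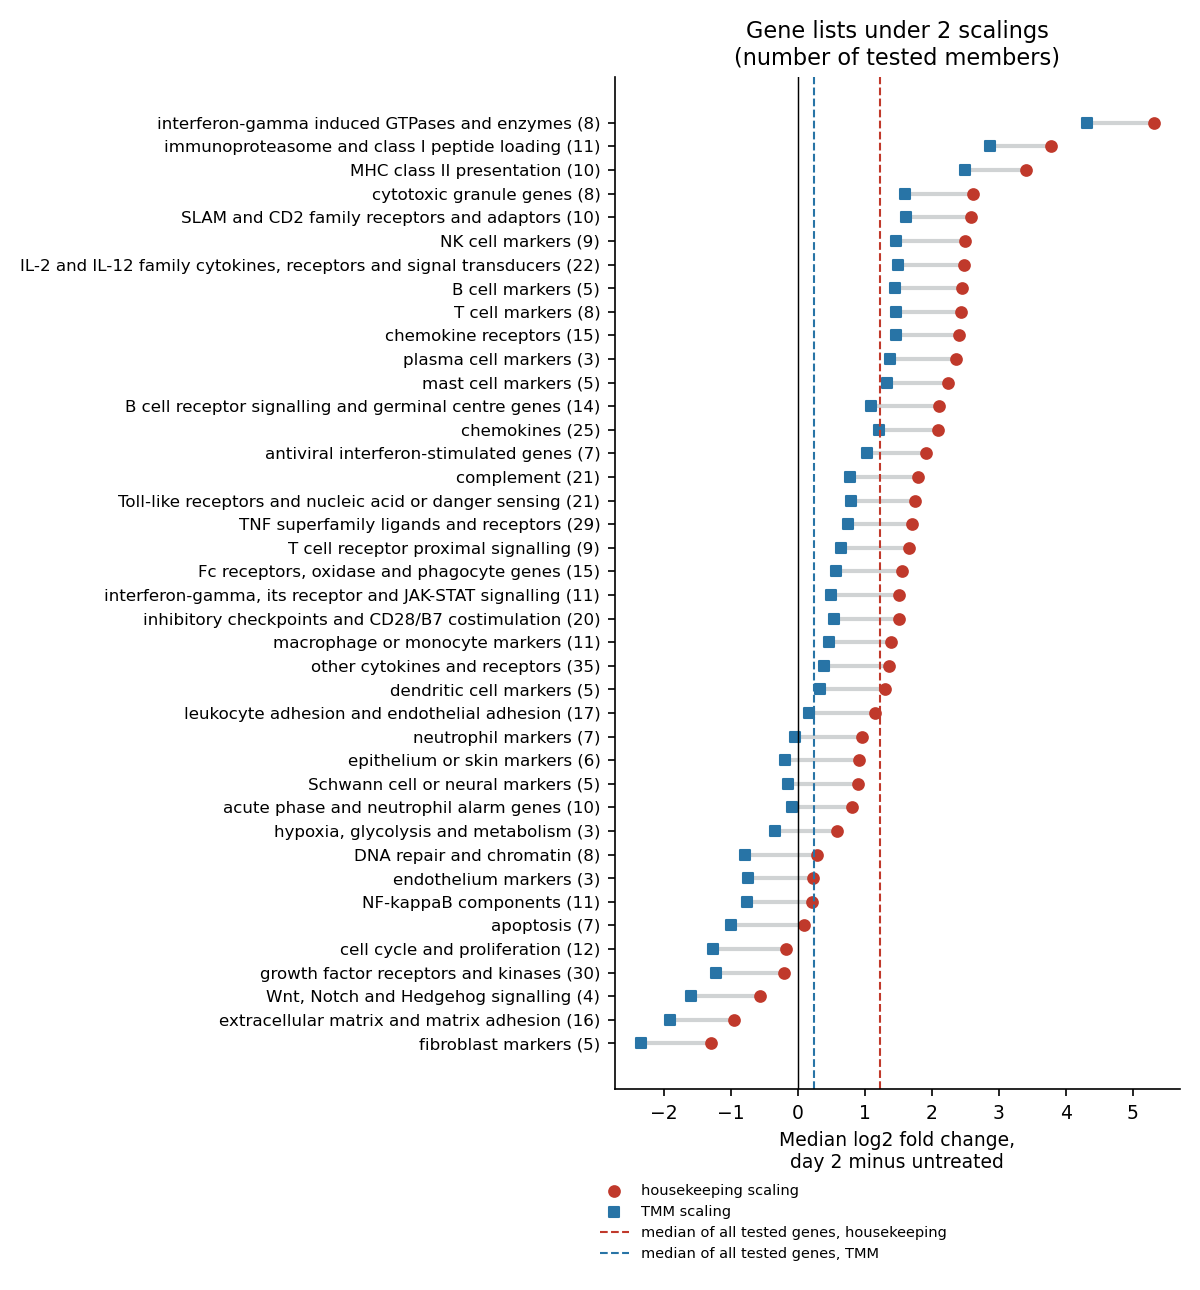
Median log2 fold change, day 2 minus untreated, of the tested members of each gene list with at least 3 of them (number in brackets), with housekeeping scaling (circles) and TMM scaling (squares); dashed lines are the medians of all tested genes, 1.23 and 0.25. Interferon-gamma induced genes, class I and class II presentation lie furthest to the right, and fibroblast and matrix genes furthest to the left.

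Of 16 matrix and matrix adhesion genes 5 were lower and 1 higher, and with TMM 9 were lower and 0 higher (median -0.96 log2, -1.91 with TMM). FN1, the matrix protein fibronectin, was at 32355, 5311 and 9848 normalized counts against 20466 to 85206 (median 49214), with A inside the untreated range. ITGB1, the beta chain of matrix-binding integrins, was at 2801, 2018 and 562 against 3474 to 7355 (median 5263), below every untreated tumour, and fell by 1.54 log2 (SE 0.54, edgeR adjusted p = 0.027). THY1, a fibroblast surface protein, was at 7113, 1181 and 1867 against 2855 to 19523 (median 13611). COL1A1, a collagen I chain, overlapped with untreated and was called lower with TMM (-2.57 log2, edgeR adjusted p = 0.0229) but not with housekeeping scaling (adjusted p = 0.1). The collagens matter here as the anchor of the injected cytokines, and were at 44291, 28649.9 and 12871 for COL1A1 and at 48659, 26557 and 6318 for COL3A1, well above background in each day 2 tumour.

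The other named falls were in surface and cytoskeletal genes. CLDN1, a tight junction protein that nerve sheath cells of the perineurium also make, was at 912, 102 and 578 normalized counts against 1242 to 16498 (median 5011), lowest in the myxosarcoma. TUBB3, a neuronal tubulin, was at 314, 110.2 and 1515 against 1845 to 6677 (median 2649.7), again lowest in B. NRP1, a coreceptor of VEGF and semaphorins, was at 1738, 1259 and 594 against 2225 to 7708 (median 3515). LGALS3, the lectin galectin-3, was at 9679, 7823 and 2202 against 14448 to 18653 (median 17143). In these 4 genes every day 2 tumour lay below every untreated one, under both scalings. IL13RA2, a decoy receptor of IL-13, at 200.4, 160.2 and 320.2, and EGFR, the epidermal growth factor receptor, at 769, 456 and 289, overlapped with untreated tumours (152 to 2501 and 427 to 1748).

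**Figure D5:**
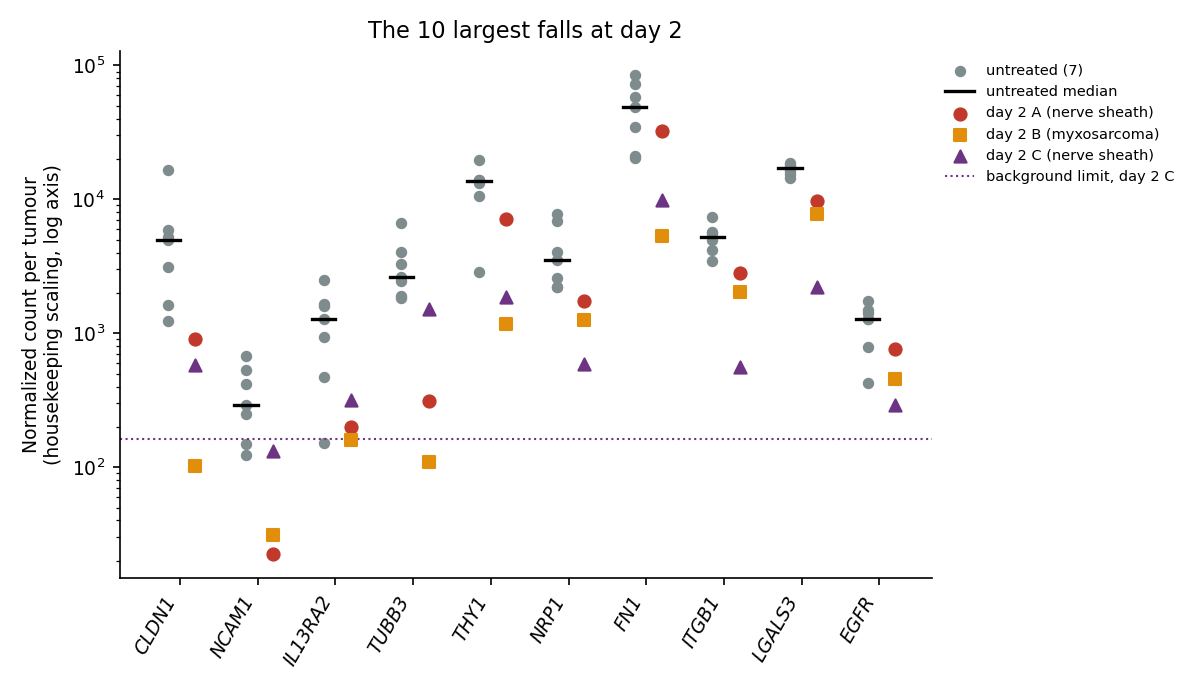
Normalized count per tumour (log axis) of the 10 largest falls called under both scalings; grey points are untreated tumours with their median as a bar, coloured symbols day 2 tumours. CLDN1, TUBB3, NRP1, ITGB1 and LGALS3 are below all 7 untreated tumours in all 3 day 2 tumours, and NCAM1 in C lies under the background limit of that tumour (dotted line).

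Of the 19 genes called lower under both scalings, 4 were called without tumour C, 3 without B and 14 without A. CD276 was called in all 10 fits that left out 1 tumour, ITGB1, CLDN1 and THY1 in 8, NRP1 in 7, FN1 in 5, NCAM1 in 5, LGALS3 in 2, IL13RA2 in 3, TUBB3 in 2 and ATM and EGFR in 3. With housekeeping scaling 0 genes were called lower once sarcoma type entered the model (11 with TMM), and in the nerve sheath tumours alone 0 were, where all 19 still had a fold change below 0. Those tumours also helped to choose the 19 genes, so the shared sign is not separate evidence. The 3 day 2 tumours held no perivascular wall tumour, the type of 4 of the 7 untreated ones.

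Counts for growth, division and repair genes depended on the scaling. Of 30 growth factor receptor and kinase genes 2 were higher and 2 lower, and with TMM 1 was higher and 15 lower (median -0.21 and -1.23). PIK3CG, a leukocyte isoform of PI3 kinase, was the one that rose under both, at 598, 858 and 492 normalized counts against 52.1 to 177 (median 92.3). In the cell cycle list 1 of 12 was higher and 0 lower, and 1 and 5 with TMM. CCND3, a cyclin used by lymphocytes, was at 699.7, 1144 and 211 against 73.4 to 197 (median 138), whereas CCND1 was at 515, 379 and 336 against 400.1 to 1622 (median 1245) and was lower with TMM (edgeR adjusted p = 0.0155) but not with housekeeping scaling (adjusted p = 0.0627). DNA repair and chromatin genes had 0 higher and 1 lower of 8, and 3 lower with TMM. The one was ATM, the kinase that senses DNA breaks, at 394, 282 and 258 against 488 to 744 (median 585), below every untreated tumour. Apoptosis genes had 1 of 7 higher and 2 lower with TMM, and NF-kappaB components 2 of 11 higher and 5 lower with TMM. Endothelial genes had 0 of 3 called under either scaling.

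On the TMM scale 18 of the 20 housekeeping probes had a fold change below 0 at day 2, with a median of -0.84 log2, and 7 were called lower and 0 higher. They ran from -1.59 for STK11IP to 0.72 for TBC1D10B, whose probe read as few as 5 raw counts. Endogenous counts per housekeeping count were 121, 111 and 65.5 in A, B and C, against 57.2 to 81.8. Whether housekeeping transcripts fell or the rest of the panel rose in the day 2 tumours cannot be told apart from these counts.

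Some named rises depended on 1 day 2 tumour. Without C, the rises of TLR5, FOXP3, IL17A, PRF1, PDCD1 and OAS3 were not called in edgeR (adjusted p = 0.576, 0.524, 0.38, 0.283, 0.12 and 0.0533). Without B, those of CCL21, SIGLEC1 and IGHM were not (0.155, 0.0721 and 0.0718), and without A those of OAS2, BST2 and CFB (0.152, 0.0756 and 0.0695). DLA-DQB1 was not called without A (0.0503) or without B (0.143). The other 72 of 85 named rises were called without each day 2 tumour in turn.

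The nerve sheath tumours alone (2 at day 2 against 3 untreated) gave 40 genes higher in edgeR with housekeeping scaling, 17 with TMM, and 0 lower. All 143 rises called under 3 scalings and without each tumour were also above 0 there, and 33 were called. The tumours compared also helped to choose these genes. IDO1 and CXCL10 rose by 9.69 and 9.74 log2 (edgeR adjusted p = 0.0381 for each), close to their values over all tumours. IL32 rose by 4.52 (SE 0.79), PSMB10 by 4.63 (SE 0.87) and TNFSF13B by 5.01 (SE 0.98). C1QA was at 1.62 (SE 1.02, adjusted p = 0.268).

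The 4 tumours excised on day 8, 2 days after a second dose given on day 6, share the interval since the last injection. Against them the day 2 group had 0 of 724 genes called (0%) in edgeR, where 84 were higher and 4 lower at an unadjusted p under 0.05. DESeq2 called 4 higher and 2 lower with its own size factors, and 27 and 1 with housekeeping size factors, and limma on the deposited values 1 and 0. Without day 2 tumour A edgeR called 27 higher and 1 lower. Of the 15 named rises IFNA7 differed most, by 4.33 log2 (SE 0.91, edgeR adjusted p = 0.0688), day 2 minus second dose. GZMB was -1.71 log2 (SE 0.96) and IFNG -1.06 (SE 1.01), and IRF1 was 1.94 (SE 0.76) and PSMB8 1.75 (SE 0.82). None of these 5 passed the test (edgeR adjusted p for the last 4 = 0.537, 0.778, 0.299 and 0.404), which does not show that the groups are alike.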

How the data were processed

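The authors deposited raw probe counts, 1 table per tumour, from FFPE scrolls hybridised to the nCounter Canine IO panel and read out with nSolver, per the labels. A table of normalized signal was also deposited; how the authors scaled it is not stated in the labels, and its values follow the housekeeping probes. In the one-dose tumours 1 factor per tumour links it to the raw counts, whereas in the untreated and two-dose tumours the factor differs by probe (0.793 to 1.22 in untreated A), so limma on this signal compares values made differently. A further table has 17 value columns whose names match no sample label, and it was not used.

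Counts were divided by the housekeeping geometric mean of each tumour relative to all 17. The 724 of 780 endogenous probes above the mean plus 2 SD of the negative controls in at least 3 tumours were tested with edgeR 4.0.16 (robust quasi-likelihood, all 17 tumours in 4 groups, Benjamini-Hochberg over 724). TMM, median-of-ratios, DESeq2 1.42.0, limma 3.58.1 on log2 of the deposited signal plus 1, other filters, covariates and samples left out were alternatives, and combinations of TMM with other choices were added after seeing the data. The edgeR step was tested on simulated data. Ratios used an exact two-sided permutation of 120 assignments. Letters A to G only name tumours.

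Named genes followed fixed rules: the 15 largest stable rises (mean of 50 or more normalized counts), the 10 largest falls, up to 4 members of each list by fold, listed pairs, and extremes of spread; CD276, IFNGR1, STAT4 and VIM were chosen after their values were seen. The members and lists were chosen with earlier results of these data known. Symbols are those of the panel; 777 of 800 gene probes matched RefSeq names. Some genes and ratios are not reported here.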

Additional observations from a re-analysis of the deposited data

Results flagged for a closer look

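Within the 7 untreated tumours 1 tumour stood apart from the rest, by the gap to its nearest neighbour, in 8 of the 145 measures examined; chance gives this in about 1 of 20 groups. Untreated tumour C had the lowest normalized count of CCND1 (400.1), CCND3 (73.4) and THY1 (2855), and untreated tumour D the highest of CFB (263). On the log2 scale FOXP3 over CD8A was -1.36 in untreated tumour F, IL2RA over IL2RB was 2.27 in D, IL12RB2 over IL12RB1 was 2.57 in G and NOS2 over ARG1 was -0.65 in E.

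The positive control probes, which count synthetic targets added in equal amount, summed to 78570 counts in day 2 tumour B and 93800 in C, above the 20151 to 35531 of the untreated tumours, while day 2 A had 14890. Endogenous counts per positive control count were 82.8, 13.9 and 1.35 in A, B and C against 40 to 63.9 in untreated tumours. The part of this difference in the results above was not tested.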

How the results depend on the processing

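Day 2 against untreated gave 346 genes higher and 19 lower. With TMM 170 and 114 were called, with median-of-ratios scaling 154 and 122, and with DESeq2 185 and 163. Lower calls numbered 11 with the 10 brightest housekeeping probes, 12 after background subtraction, 42 with DESeq2 and housekeeping size factors and 31 with limma on the deposited signal, where higher calls stayed within 1.5 times of 346. Sarcoma type as a covariate gave 180 and 0, and nerve sheath tumours alone 40 and 0. TMM combined with nerve sheath tumours alone gave 17 and 0, with sarcoma type 58 and 11, and with background subtraction 117 and 92. Without 1 tumour the counts ran from 253 to 351 higher and 3 to 22 lower, and with TMM from 142 to 179 and 48 to 118, where 48 was without day 2 B. With the replicate letter as a block 326 were higher and 9 lower. Deviations of same-letter tumours from their group means correlated at r = -0.03, 0.31 and 0.21 for A, B and C. Other day 2 and untreated pairs ran from -0.37 to 0.21. For day 2 tumours B and C the same-letter value was the highest, and for A it was not. Same-letter tumours have different sarcoma types in the labels, and the letters were not taken as pairs.

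With sarcoma type as a covariate 18 of 85 named rises were not called, and all 13 named falls lost their call. Background subtraction ended the calls of FOXP3, TLR5, MS4A1 and CCR7 and of 6 of the 13 named falls, and the replicate block those of 2 rises and 9 falls. MCAM, not called in edgeR, changed sign to -0.92 log2 with TMM, -1.01 with median-of-ratios scaling, -1.01 with DESeq2 and -0.96 with TMM after background subtraction, and IFNGR1, not called in edgeR, to -0.97 with DESeq2 (called lower), -0.92 under TMM and -0.97 under median-of-ratios scaling. TLR5 ran from -0.64 without day 2 C to 2.97 without day 2 A, and PDCD1 with TMM from -0.24 without day 2 C to 2.21. The causes were not tested.

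Against the second dose, where 0 genes were called, no filter gave 3 higher, sarcoma type 1, limma 1, DESeq2 4 higher and 2 lower, and DESeq2 with housekeeping size factors 27 and 1; without 1 tumour 0 to 27 were higher and 0 to 1 lower. Ratio calls (7 higher, 4 lower) went to 0 and 0 in nerve sheath tumours alone. With 2 against 3 tumours there are too few assignments for any ratio to be called, so this says nothing about the ratios. Without 1 tumour the calls ran from 0 to 9 and 0 to 4, where fewer tumours also allow fewer assignments. NCR1 over CD3E changed sign from -0.26 to 3.21 log2 after background subtraction. In this pair 8 untreated values and 1 day 2 value were at or under background, so its sign and size depend on how such counts are set.

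Limits: 3 treated and 7 archived tumours of partly different sarcoma types, no pretreatment samples, 1 panel of selected genes, and little RNA in day 2 C, where a value under 163 normalized counts is at background.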
